A study of Mus musculus with 10 samples.

Results

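Transcripts of 10 glycolytic enzymes, Hk1, Hk2, Gpi1, Pfkl, Pfkp, Aldoa, Tpi1, Eno1, Pkm and Ldha, were compared between intestinal crypts of mice that lack ARID3A in the epithelium and crypts of WT mice. The 10 genes were taken by symbol from the 54838 genes listed for every library, and all 10 passed the filter on low counts together with 14719 genes in total. Gapdh and Pgk1 were left out of the set because many processed pseudogenes of these genes can share their reads. ARID3A is a DNA-binding protein of the AT-rich interaction domain family, and the comparison addressed what its loss does to gene expression in crypts.

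The series held 10 bulk RNA-seq libraries from jejunal crypts, 5 of WT animals and 5 of Arid3a conditional knockout (cKO, labelled KO) animals, each library from 1 animal. The cKO genotype was VillinCre-ERT2+/-; Arid3a fl/fl, in which the Villin promoter drives a tamoxifen-inducible Cre in intestinal epithelial cells only, so other cell types of the gut keep the floxed gene intact. Both genotypes were injected with tamoxifen on 3 consecutive days and were culled 1 month after the first injection. The Cre status of the WT animals and the age of the animals were not given in the sources used here. The animal identifiers fell into 3 stems per genotype with 0 stems in common, and WT replicates 2 and 3, WT replicates 4 and 5, cKO replicates 1 and 2 and cKO replicates 4 and 5 shared a stem. What a stem marks was not given in the sources used here, and whatever it marks cannot be told apart from genotype.

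Library totals ran from 27050415 to 31053604 counts, and no 2 libraries held identical values. Arid3a itself was at 1.91 to 2.75 CPM (counts scaled by library size and TMM factor) in the WT animals and at 0.303 to 1.17 CPM in the cKO animals, a log2 fold change of -1.84 ± 0.32 (SE, adjusted p = 0.00204). Counts covered the whole gene rather than the floxed exons alone. Of 11 villus enterocyte markers, 9 were higher in cKO crypts, and their summed level was 1218 to 5954 CPM in WT and 7364 to 13994 CPM in cKO animals, which did not overlap. That count was 5 without WT replicate 3, WT replicate 5 or cKO replicate 4 and 3 without cKO replicate 5. Of 11 crypt markers, 8 were lower, with summed levels of 10879 to 18380 CPM in WT and 8376 to 10187 CPM in cKO animals, and none of the markers of either list was at 0. The sums of 10 immune markers (108 to 184 CPM in WT, 44.6 to 161 CPM in cKO) and of 10 stromal, muscle and endothelial markers (14.6 to 86.7 CPM in WT, 9.83 to 134 CPM in cKO) overlapped between the genotypes, those of the immune markers only through cKO replicate 4. Of the 10 immune markers 3 were lower and 0 higher (median log2 fold change -0.68), and the lower count was 1 without WT replicate 4 or cKO replicate 1. Of 9 tested stromal, muscle and endothelial markers 2 were lower and 0 higher (median -0.66), and the lower count was 1 to 5 on leaving out 1 animal, with 5 without cKO replicate 4. The sum of 5 red blood cell markers stayed at or under 11.5 CPM. In bulk crypts fewer cells of a type and less RNA per cell cannot be told apart.

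Glycolysis splits glucose into pyruvate and yields ATP without oxygen. Hexokinases trap glucose in the cell, phosphofructokinase commits it to the pathway, aldolase splits the sugar, enolase and pyruvate kinase complete the payoff steps, and lactate dehydrogenase returns NAD+ by turning pyruvate into lactate. In the intestine, stem and transit amplifying cells of the crypt and the absorptive enterocytes of the villus use glucose and pyruvate differently, and several steps have isoenzymes with a preferred tissue, such as Pklr, which is typical of liver and red cells.

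Along the pathway, 3 of the 10 enzymes were higher in Arid3a cKO crypts, 1 was lower and 6 did not pass the test. Pkm, the pyruvate kinase of most tissues, rose 1.42-fold, Eno1, the ubiquitous enolase, rose 1.35-fold, and Gpi1, which interconverts glucose and fructose phosphates, rose 1.28-fold. Hk2, the inducible hexokinase that binds mitochondria, fell, with WT levels 1.44-fold above cKO levels. The test was the edgeR quasi-likelihood test with Benjamini-Hochberg adjustment over all genes tested at a threshold of 0.05. By the same test 28.3% of all tested genes were called, 15.6% as higher and 12.7% as lower. With a set of 10 each enzyme counts for 10 percentage points, so nothing particular to these enzymes was read from the counts. The median log2 fold change was 0.24 over the 10 enzymes and -0.03 over all tested genes. A positive value was found in 7 of the 10 enzymes and in 6755 of all 14719 tested genes.

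**Figure D1:**
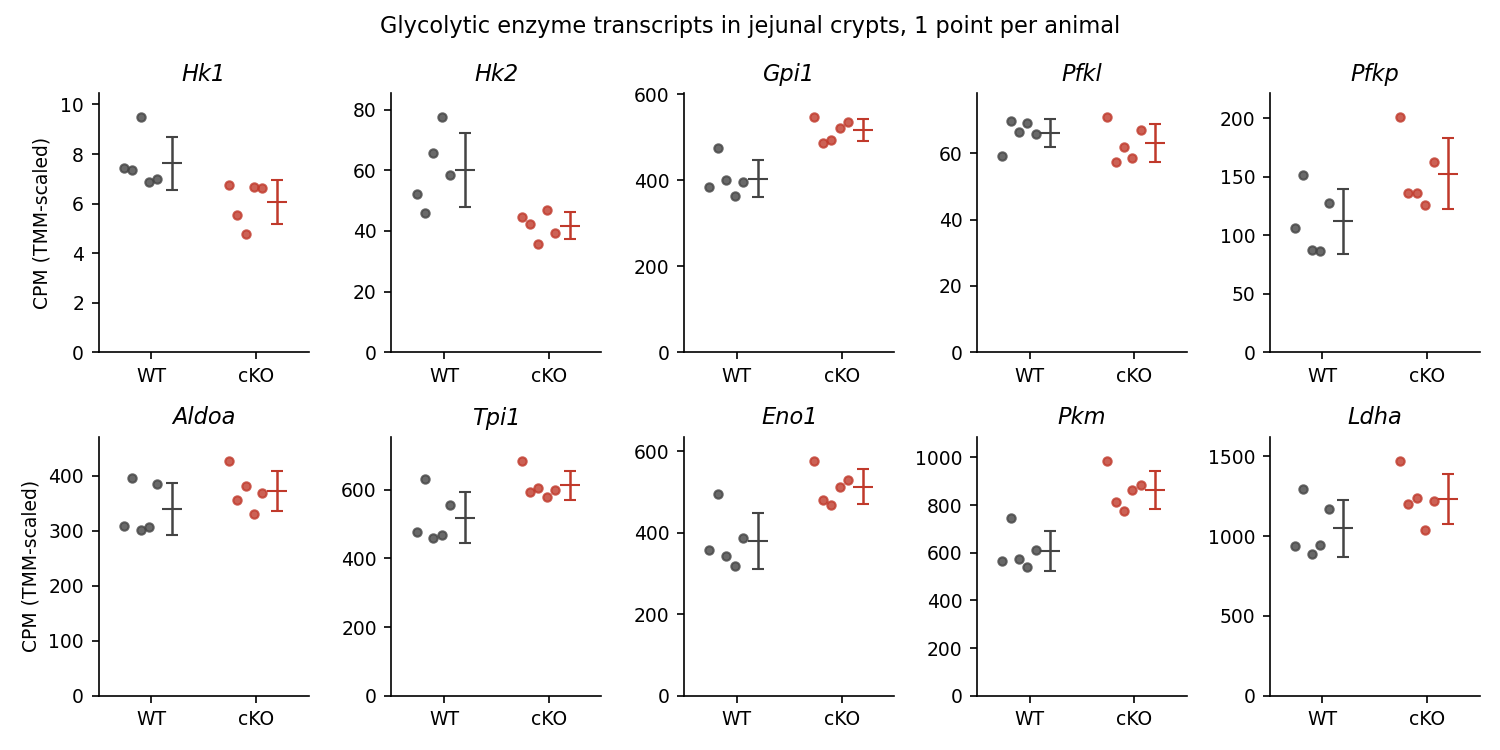
Each panel plots 1 enzyme in CPM with an axis from 0, with a point per animal and, beside the points, the mean and SD of the 5 WT (grey) or 5 cKO (red) animals. The points of the 2 genotypes are fully apart for Hk1, Gpi1 and Pkm and overlap for the other enzymes.

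Windows next to a start site of the 4 called enzymes and of Ldha, which held the most motif matches, are shown because they let the genes that moved be compared base by base. They are the 250 bases before the RefSeq start nearest that of the principal transcript (build GRCm38.p6), written 5′ to 3′ on the strand of the gene, with capitals for the core ACGTG, which occurs in hypoxia response elements and in E-boxes, on either strand.
Hk2 (chr6:82774455-82774704, minus strand): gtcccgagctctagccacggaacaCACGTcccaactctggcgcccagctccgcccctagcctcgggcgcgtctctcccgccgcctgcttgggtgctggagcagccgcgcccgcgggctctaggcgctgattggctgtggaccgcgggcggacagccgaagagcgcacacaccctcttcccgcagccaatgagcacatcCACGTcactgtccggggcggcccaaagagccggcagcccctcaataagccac
Gpi1 (chr7:34230337-34230586, minus strand): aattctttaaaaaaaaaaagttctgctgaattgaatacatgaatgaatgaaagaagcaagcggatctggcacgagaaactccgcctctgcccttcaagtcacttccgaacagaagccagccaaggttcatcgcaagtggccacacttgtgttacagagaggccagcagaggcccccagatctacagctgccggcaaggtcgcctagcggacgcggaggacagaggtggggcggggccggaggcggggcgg
Eno1 (chr4:150236458-150236707, plus strand): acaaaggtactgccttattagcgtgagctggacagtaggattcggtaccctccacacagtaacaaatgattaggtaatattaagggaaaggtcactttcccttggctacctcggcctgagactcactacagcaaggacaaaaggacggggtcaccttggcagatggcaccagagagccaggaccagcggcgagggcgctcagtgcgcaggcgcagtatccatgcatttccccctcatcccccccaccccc
Pkm (chr9:59656326-59656575, plus strand): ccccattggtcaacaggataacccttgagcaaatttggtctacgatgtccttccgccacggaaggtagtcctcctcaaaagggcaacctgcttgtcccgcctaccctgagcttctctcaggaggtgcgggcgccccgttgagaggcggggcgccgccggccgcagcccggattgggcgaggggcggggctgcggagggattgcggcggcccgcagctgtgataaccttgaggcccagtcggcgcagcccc
Ldha (chr7:46845554-46845803, plus strand): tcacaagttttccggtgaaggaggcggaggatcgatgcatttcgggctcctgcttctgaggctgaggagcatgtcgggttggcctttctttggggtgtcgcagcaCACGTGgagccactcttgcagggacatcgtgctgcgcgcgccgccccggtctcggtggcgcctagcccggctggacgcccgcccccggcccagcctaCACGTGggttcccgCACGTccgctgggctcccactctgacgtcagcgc
In the same build Hk2 (ENSMUSG00000000628) spans chr6:82725025-82774454, Gpi1 (ENSMUSG00000036427) spans chr7:34201330-34230336, Eno1 (ENSMUSG00000063524) spans chr4:150236721-150248879 and Pkm (ENSMUSG00000032294) spans chr9:59656368-59679375. The RefSeq start used was that of the principal transcript for Hk2 and Gpi1, and lay 35 bases from it for Ldha, 208 for Pkm and 244 for Eno1. The Pkm window begins before the annotated gene start but lies mostly inside the gene, and the Ldha window lies inside the annotated span of its gene. All 10 enzymes had a window among 32851 RefSeq windows. ACGTG was found in 2 of the 10 windows, those of Hk2 and Ldha, and in 16.6% of all windows. CACGTG, the palindromic E-box that contains ACGTG on both strands, was found only in the window of Ldha among the 10, where it occurred at 2 places, and in 6.02% of all windows. The AT-rich words ATTAAA and ATCAAA, which are forms of the AT-rich sequence that ARID3A is known to prefer, were in 0 of the 10 windows on either strand and in 12.7% and 10.6% of all windows, respectively. The 3 windows of the enzymes that rose, Gpi1, Eno1 and Pkm, held none of these 4 words. For Eno1 and Pkm the windows do not cover all of the 250 bases before the start of the principal transcript. GC content was 69.6% in the window of Hk2, 66.4% in that of Pkm, 55.6% in that of Eno1 and 55.2% in that of Gpi1, against a median of 52.4% over all windows. No binding of any factor was measured in these libraries.

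On the TPM scale, which corrects for gene length and depth, the enzymes differed widely in level. In WT crypts Ldha had the highest mean level at 910 TPM, followed by Tpi1 at 500 TPM. Aldoa (367 TPM), Pkm (343 TPM), Gpi1 (306 TPM) and Eno1 (278 TPM) formed a middle group in which the ranges of neighbours overlapped. The phosphofructokinases and hexokinases were far lower, with Pfkp at 53.5 TPM, Pfkl at 26.4 TPM, Hk2 at 23.1 TPM and Hk1 at 2.75 TPM, and the ranges of Pfkl and Hk2 overlapped. In cKO crypts the order was the same except that Pkm, at 454 TPM, stood above Aldoa, at 377 TPM, again with overlapping ranges. Together the 10 enzymes made up 0.281% ± 0.029 (SD, n = 5) of all TPM in WT and 0.321% ± 0.030 (SD, n = 5) in cKO crypts, with overlapping ranges of 0.257% to 0.33% and 0.298% to 0.372%.

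The first step separated into enzymes that moved in opposite directions. Hk2 measured 52.4, 46.0, 65.8, 77.6 and 58.4 CPM in WT replicates 1 to 5 and 44.7, 42.2, 35.7, 47.1 and 39.2 CPM in cKO replicates 1 to 5. In CPM all but 1 of the cKO animals lay below the lowest WT animal, and the highest cKO animal lay just above it. The log2 fold change was -0.52 ± 0.13 (SE), with a 95% interval of -0.81 to -0.24 and an adjusted p of 0.0115. Without WT replicates 3 and 4, the WT animals with the lowest villus marker sums and the highest Hk2, the value was -0.32 and the call was lost (adjusted p = 0.0647).

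Hk1, the hexokinase expressed in most tissues, measured 7.44, 7.36, 9.49, 6.86 and 6.98 CPM in the WT animals and 6.73, 5.53, 4.75, 6.66 and 6.62 CPM in the cKO animals. Every cKO animal lay below every WT animal, with a small gap, and WT replicate 3 stood above the other WT animals. The log2 fold change of -0.33 ± 0.13 (SE) did not pass the test over all genes (adjusted p = 0.0793), at 136 to 280 counts per library. The Hk2 to Hk1 ratio of TPM ran from 7 to 11.5 in WT and from 6.90 to 9.58 in cKO animals, and its difference of -0.08 ± 0.15 (log2, SE) did not exceed what varied from animal to animal (p = 0.651 by an exact permutation test, two-sided, and adjusted p = 0.781 over 6 isoenzyme ratios).

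Hkdc1, a further hexokinase gene that lies 3228 bases beyond Hk1 on chromosome 10 and has the same orientation, was singled out after its values were seen. It rose from 71.2 ± 28.3 CPM in WT to 152 ± 19.2 CPM in cKO crypts (SD, n = 5 each), with a log2 fold change of 1.09 ± 0.25 (SE, adjusted p = 0.0103), and the groups did not overlap. In WT crypts Hkdc1 supplied 33.7% to 66.0% of the summed TPM of Hk1, Hk2 and Hkdc1, and in cKO crypts 71.9% to 78.3%. The share of Hk2 was 30.1% to 61.0% in WT and 19.3% to 25.0% in cKO animals. The summed TPM of the 3 genes was 46.3 to 65.2 in WT and 65.9 to 85.6 in cKO animals.

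**Figure D2:**
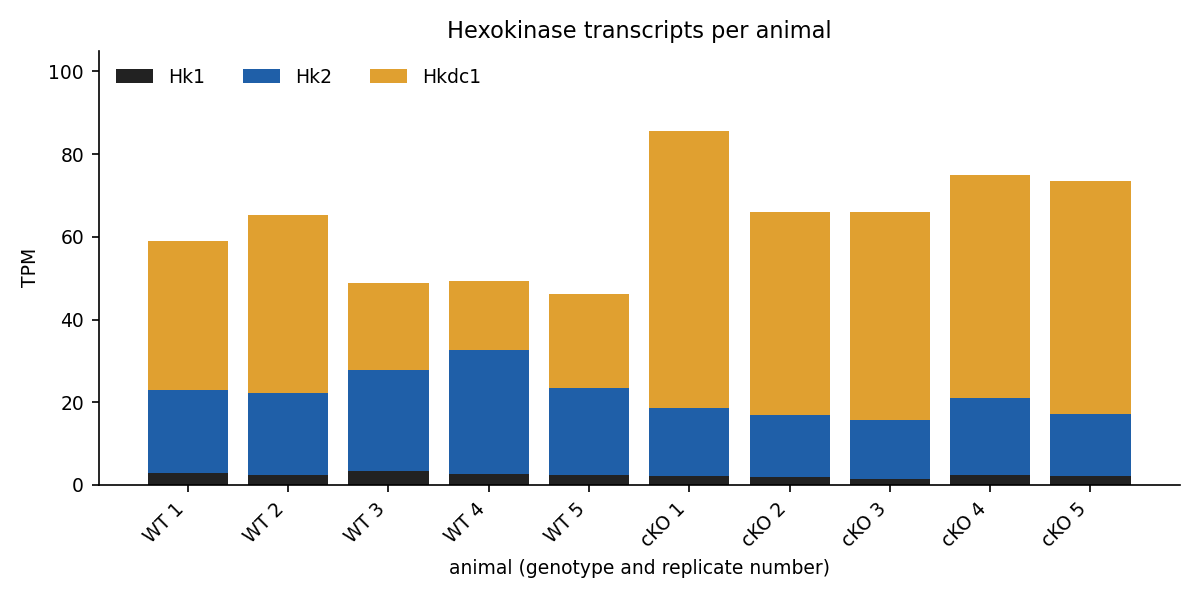
Stacked bars give the TPM of Hk1, Hk2 and Hkdc1 in each animal, with genotype and replicate number along the horizontal axis. The Hkdc1 segment is 16.6 to 43.0 TPM in the WT animals and 49.1 to 67.0 TPM in the cKO animals, while the Hk2 segment is 19.6 to 30.1 TPM in WT and 14.2 to 18.7 TPM in cKO animals.

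Gpi1, glucose-6-phosphate isomerase, measured 383, 476, 399, 364 and 396 CPM in the WT animals and 547, 487, 494, 521 and 534 CPM in the cKO animals. In CPM all cKO animals lay above all WT animals, with WT replicate 2 closest to them. The log2 fold change was 0.36 ± 0.08 (SE), with a 95% interval of 0.19 to 0.53 and an adjusted p of 0.00685. Scaled by library size alone the value was 0.23 and was still called (adjusted p = 0.0296).

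The phosphofructokinases did not move together. Pfkl, the liver-type subunit, measured 59.1, 69.8, 66.4, 69.3 and 66.0 CPM in WT and 71.0, 57.5, 62.0, 58.5 and 67.2 CPM in cKO animals. The groups overlapped throughout, and the log2 fold change was -0.06 ± 0.08 (SE, 95% interval -0.23 to 0.10, adjusted p = 0.552), so a rise of more than 0.10 or a fall of more than 0.23 on this scale lay outside the interval. Pfkl lies 1.92 Mb from Arid3a on chromosome 10, closer than any other of the 10 enzymes.

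Pfkp, the platelet-type subunit, measured 106, 151, 87.7, 86.9 and 127 CPM in WT and 201, 137, 137, 126 and 162 CPM in cKO animals. Its coefficient of variation was 24.7% in WT, and the groups overlapped through WT replicates 2 and 5. Its log2 fold change of 0.45 ± 0.17 (SE) did not pass the edgeR test (adjusted p = 0.0762), while the DESeq2 Wald test called it (adjusted p = 0.0349), as did the edgeR test without WT replicate 2 (log2 fold change 0.58, adjusted p = 0.018). Within each animal the Pfkp to Pfkl ratio of TPM was 2.47, 2.61, 1.54, 1.48 and 2.26 in WT and 3.38, 2.77, 2.65, 2.59 and 2.87 in cKO animals. WT replicates 3 and 4 were lowest and cKO replicate 1 was highest, and WT replicate 2 overlapped the lowest cKO animal. The ratio rose by 0.49 ± 0.19 (log2, SE), with p = 0.0159 by the two-sided exact permutation test and an adjusted p of 0.0317. That call was lost on leaving out any animal other than WT replicate 2 or cKO replicate 4, with adjusted p = 0.0635 in each of these 8 cases, and without WT replicates 3 and 4 together the difference was 0.22. Pfkm, the muscle-type subunit, stayed at 13.3 to 15.5 CPM in WT and 12.9 to 15.4 CPM in cKO animals, and its ratio to Pfkl differed by -0.02 ± 0.11 (log2, SE, exact permutation p = 0.817, adjusted p = 0.817).

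Aldoa, the aldolase of muscle and most dividing cells, measured 309, 397, 302, 307 and 385 CPM in WT and 428, 356, 381, 330 and 369 CPM in cKO animals. The groups overlapped, and the log2 fold change was 0.13 ± 0.10 (SE, 95% interval -0.08 to 0.35, adjusted p = 0.337).

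Tpi1, triosephosphate isomerase, measured 478, 631, 460, 468 and 555 CPM in WT and 685, 593, 606, 580 and 599 CPM in cKO animals. WT replicate 2 stood among the cKO animals, and cKO replicate 1 stood apart above the other cKO animals. The log2 fold change of 0.24 ± 0.10 (SE, 95% interval 0.03 to 0.45) did not pass the test (adjusted p = 0.0755), and without WT replicate 2 it was 0.32 with an adjusted p of 0.0107.

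Eno1, alpha-enolase, measured 358, 495, 343, 319 and 387 CPM in WT and 577, 480, 468, 512 and 528 CPM in cKO animals. WT replicate 2 again lay among the cKO animals and the other WT animals lay below all of them. The log2 fold change was 0.43 ± 0.11 (SE), with a 95% interval of 0.19 to 0.67 and an adjusted p of 0.014. Without WT replicates 3 and 4 it was 0.31 and was not called (adjusted p = 0.0949).

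Eno1 was the enzyme with the most reads on near-identical copies, and a stretch of 100 coding bases of Eno1 is set beside its pseudogene Gm4735 to show how little separates them, with capitals for the bases that differ (GENCODE M21, build GRCm38).
Eno1 (transcript bases 1576 to 1675, plus strand of chromosome 4): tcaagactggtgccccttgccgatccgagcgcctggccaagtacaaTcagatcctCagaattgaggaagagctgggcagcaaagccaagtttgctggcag
Gm4735 (chr2:80838318-80838417, plus strand): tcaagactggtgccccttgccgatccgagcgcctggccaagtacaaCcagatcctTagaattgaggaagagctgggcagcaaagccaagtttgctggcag
Over the 1302 bases of Gm4735 only 5 differed from Eno1, and the stretch shown holds 2 of them. The annotated copies took at most 2.76% of the summed count of Eno1 and its copies in any library, 1.96% to 2.76% in WT and 1.24% to 1.71% in cKO animals. For Gpi1, Aldoa, Tpi1, Pkm and Ldha the copies took at most 0.25%, and Hk1, Hk2, Pfkl and Pfkp had none with 90% identity or more across 50% or more of the copy. With the counts of each enzyme and its copies summed, the same 3 enzymes were called higher and Hk2 lower. A second Ensembl entry with the symbol Aldoa, ENSMUSG00000114515, held 11 to 27 counts per library against 8891 to 12709 for ENSMUSG00000030695, which is the entry described here. How the reads of a gene and its copy were divided by the estimation cannot be checked from the counts.

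Pkm measured 564, 747, 573, 539 and 612 CPM in WT and 987, 814, 775, 864 and 883 CPM in cKO animals. In CPM all cKO animals lay above all WT animals, and the log2 fold change of 0.51 ± 0.10 (SE, 95% interval 0.30 to 0.72, adjusted p = 0.00371) was the highest of the 10 enzymes. Pkm gives rise to the splice forms M1 and M2, which gene-level counts do not separate. Ptbp1, the splicing factor known to favour the M2 form, fell by 0.34 ± 0.07 on the log2 scale (SE, adjusted p = 0.00415). Neither the Pkm splice forms nor the distance of Ptbp1 from the floxed Arid3a gene was examined. Pklr, the pyruvate kinase of liver and red cells, rose by 0.72 ± 0.14 (log2, SE, adjusted p = 0.00383), and the Pklr to Pkm ratio of TPM was 0.126 to 0.167 in WT and 0.167 to 0.176 in cKO animals. That ratio differed by 0.24 ± 0.09 (log2, SE), with an exact permutation p of 0.00794, the smallest the design allows, and an adjusted p of 0.0238, but the highest WT and lowest cKO animals nearly touched, and as a ratio of CPM it did not pass (adjusted p = 0.0635).

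Ldha, the lactate dehydrogenase subunit of glycolytic tissues, measured 939, 1298, 890, 945 and 1173 CPM in WT and 1474, 1201, 1237, 1038 and 1222 CPM in cKO animals. The groups overlapped through WT replicates 2 and 5, and the log2 fold change of 0.23 ± 0.12 (SE, 95% interval -0.03 to 0.50) did not pass the test (adjusted p = 0.164). Without WT replicate 2 it was 0.32 with an adjusted p of 0.0455. Ldhb, the subunit of oxidative tissues, was close to the detection limit at 0.202 to 1.53 CPM over all libraries, and its ratio to Ldha was 0.00105 to 0.0021 in WT and 0.000364 to 0.00202 in cKO animals (log2 difference -0.71 ± 0.47, SE, exact permutation p = 0.159, adjusted p = 0.238).

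**Figure D3:**
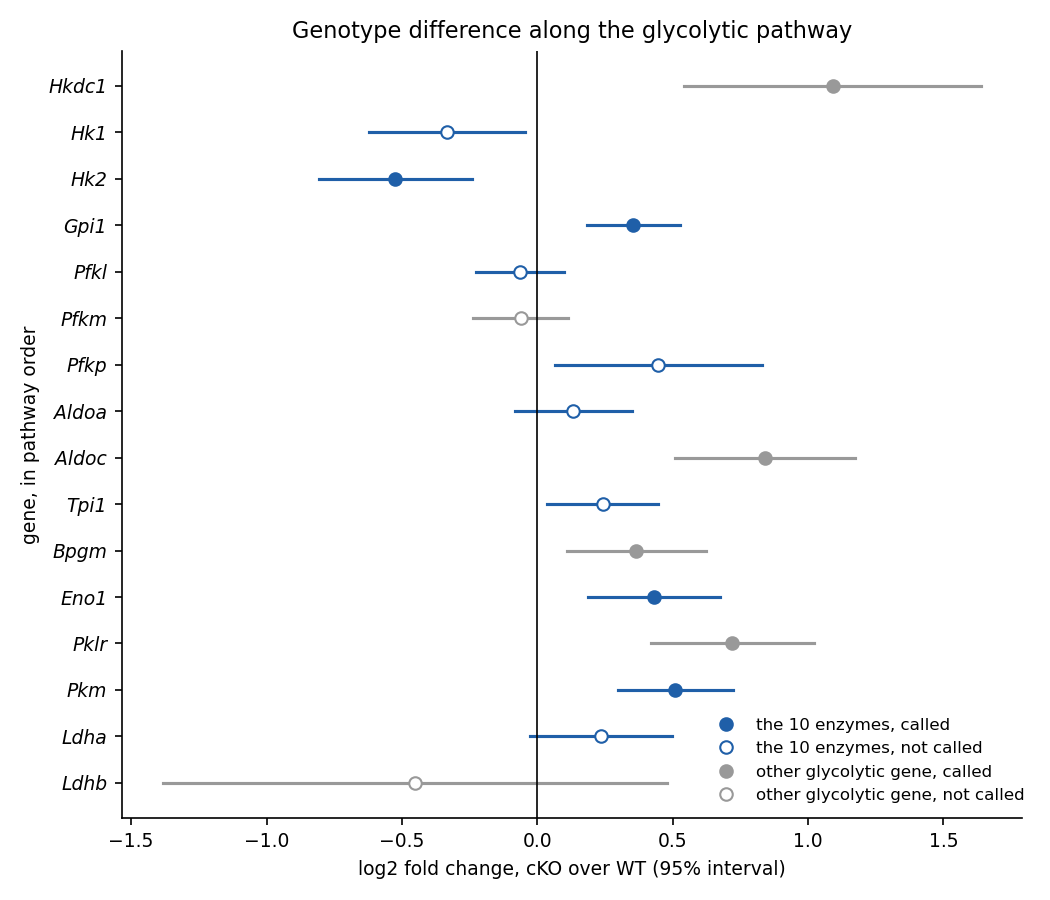
Points give the log2 fold change of cKO over WT and lines its 95% interval, for the 10 enzymes (blue) and other genes of the pathway (grey) from glucose at the top to lactate at the bottom, filled where the adjusted p was below 0.05. Hk2 lies left of 0, Gpi1, Eno1 and Pkm lie right of it, and Hkdc1, Aldoc and Pklr lie at 0.72 to 1.09.

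**Figure D4:**
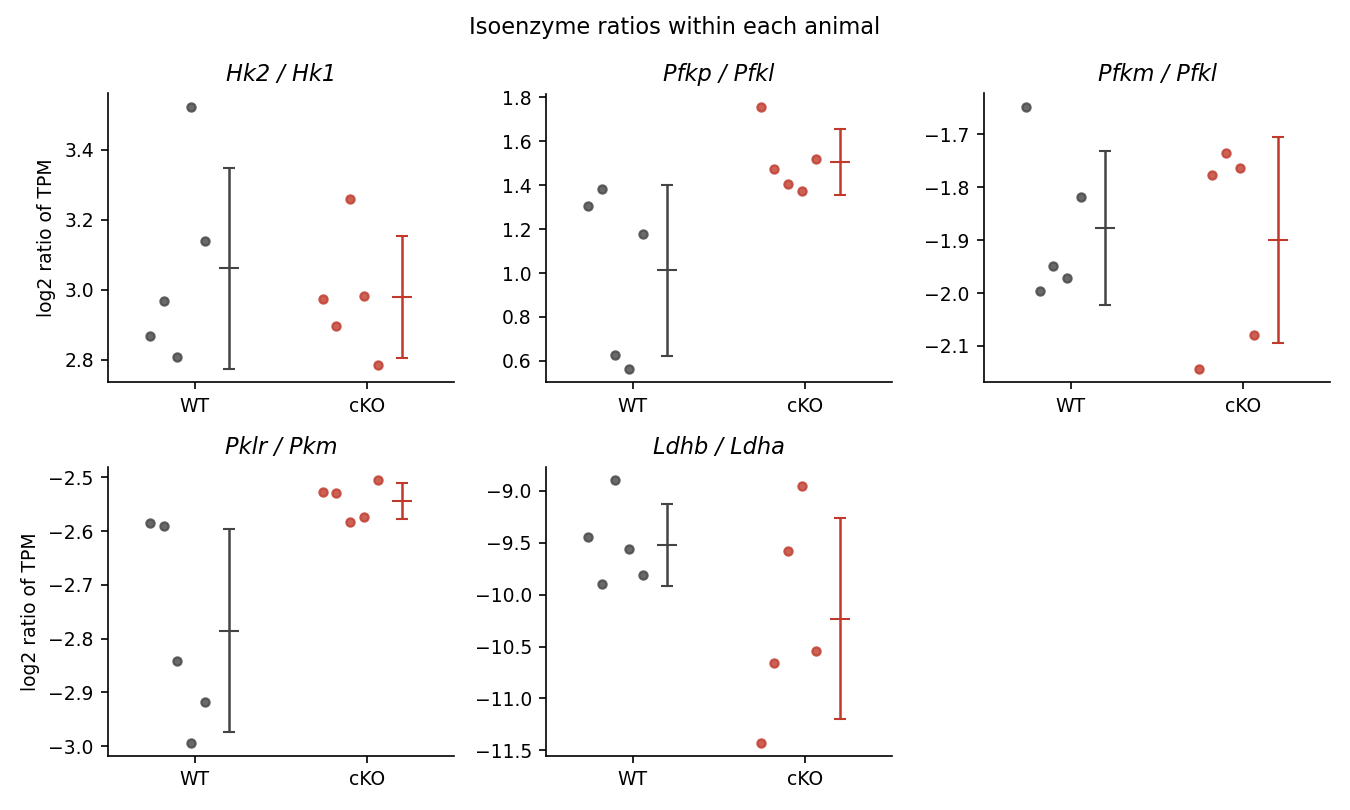
Each panel gives the log2 ratio of the TPM of a pair of isoenzymes in each animal, with the mean and SD of 5 WT (grey) and 5 cKO (red) animals beside the points. The genotypes are narrowly apart for Pklr to Pkm and overlap for the other 4 ratios.

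The same animals tended to be highest or lowest from enzyme to enzyme. WT replicate 2 was the highest WT animal in 8 of the 10 enzymes, all but Hk1 and Hk2, and the lowest in Hk2. WT replicate 4 was the lowest in 5, Hk1, Gpi1, Pfkp, Eno1 and Pkm, and the highest in Hk2. Among the cKO animals replicate 1 was the highest in 9 enzymes, all but Hk2. Within WT, replicate 2 also had the highest summed villus markers (5954 CPM) and the lowest summed crypt markers (10879 CPM), and replicate 4 had the lowest summed villus markers (1218 CPM). Within cKO, replicate 1 was not the highest in summed villus markers, with 10258 CPM in a range of 7364 to 13994 CPM. The part of villus cells in the enzyme values was not tested.

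In CPM, groups were apart without overlap for 3 of the 10 enzymes, Hk1, Gpi1 and Pkm, against 19.6% of all tested genes. In TPM, Gpi1 overlapped (WT up to 367, cKO from 337), and so did Pkm (WT up to 404, cKO from 401). Hk2 was apart in TPM (WT from 19.6, cKO up to 18.7), and so was Hk1 (WT from 2.39, cKO up to 2.37). Scaling by library size alone moved the median log2 fold change of all genes from -0.03 to -0.16 and the split of calls from 2298 higher and 1869 lower to 1544 higher and 4030 lower, and limma on log2(TPM + 0.5) gave a median of -0.12 with 1401 higher and 2748 lower. Relative to the median of all genes, Pkm was at 0.54, 0.55 and 0.52 under these 3 scalings, Eno1 at 0.46, 0.47 and 0.45, Gpi1 at 0.39, 0.39 and 0.40, and Hk2 at -0.49, -0.49 and -0.40. The direction of these 4 enzymes did not flip under any alternative run. Hk1 passed the test under library size scaling (log2 fold change -0.46, adjusted p = 0.0191), where lower calls also outnumbered higher calls over all genes.

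**Figure D5:**
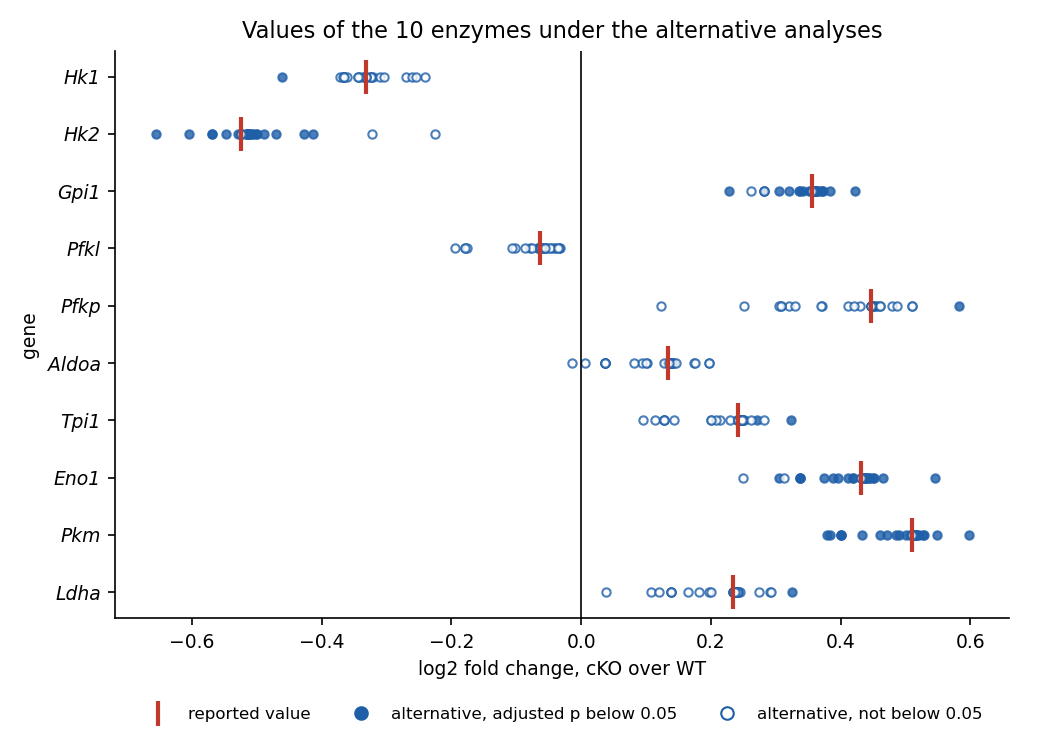
For each of the 10 enzymes, blue points give the log2 fold change of cKO over WT under each of 27 alternative analyses, filled where the adjusted p was below 0.05, and the red bar gives the reported value. All points of Hk2 lie left of 0 and all points of Gpi1, Eno1 and Pkm lie right of it, while those of Aldoa reach 0.

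Around the 10 enzymes, 13 of 15 other genes of the pathway could be tested, and 5 of them were higher, 0 lower (0 at an unadjusted p under 0.05, 0 by limma-voom, 1 by DESeq2) and 8 not called by edgeR. The 5 were Hkdc1, Aldoc, Gapdh, Bpgm and Pklr. For this and each list below, the edgeR shares over all tested genes were 15.6% higher and 12.7% lower. Whether called or not, 6755 of the 14719 tested genes had a positive and 7964 a negative log2 fold change. Aldoc, the brain-type aldolase, rose by 0.84 ± 0.15 (log2, SE, adjusted p = 0.00276) from a low level of 7.83 ± 0.72 to 14.0 ± 3.33 CPM (SD, n = 5 each). Gapdh, which oxidises glyceraldehyde 3-phosphate, was at 1.14 ± 0.11 (log2, SE, adjusted p = 0.000239). This value is uncertain, since pseudogenes can take part of its reads and its copies were not counted here. With an effective length offset Gapdh was at 0.81 (edgeR adjusted p = 0.00123), and on log2(TPM + 0.5) at 0.72 (limma adjusted p = 0.00111). The part of pseudogenes in these differences was not tested. Bpgm, which makes 2,3-bisphosphoglycerate, was called at 0.37 ± 0.12 (log2, SE, adjusted p = 0.0367), and 17 of 27 alternatives lost the call, 7 of them by leaving out 1 animal (WT replicates 1, 3 and 4 and cKO replicates 1, 2, 3 and 5). Hk3, a hexokinase of blood cells, was under the count filter at 0.275 to 0.803 CPM in WT and 0.0378 to 0.272 CPM in cKO animals, and it was the gene that DESeq2 called lower (log2 fold change -1.91, adjusted p = 0.00334). The summed immune markers of 4 of the 5 cKO animals lay below those of every WT animal, and their part in Hk3 was not tested.

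Among 16 regulators of the pathway, 5 were higher, 5 lower and 6 not called. Pfkfb4, a bifunctional enzyme that sets fructose 2,6-bisphosphate, rose 2.02-fold (log2 1.01 ± 0.20, SE, adjusted p = 0.00558), and with counts summed per identifier stem it was at 0.91 and was not called (adjusted p = 0.0565). Tigar, a fructose bisphosphatase that lowers glycolytic flux, fell by 0.47 ± 0.11 (adjusted p = 0.00964), a call lost with an effective length offset (-0.41, adjusted p = 0.0535). The gluconeogenic bisphosphatases Fbp1 and Fbp2 rose by 0.52 ± 0.11 (adjusted p = 0.00574) and 0.46 ± 0.10 (adjusted p = 0.00772). Of the transcription factors in this list, Epas1, which encodes HIF-2 alpha, rose by 0.62 ± 0.12 (adjusted p = 0.00414). Hif1a was at 0.11 ± 0.08 (adjusted p = 0.295, and at -0.022 under library size scaling). Myc fell by 0.33 ± 0.09 (adjusted p = 0.0177, lost without WT replicates 3 and 4, where it was -0.24). The part of these factors in the enzyme values was not tested. Adpgk, an ADP-dependent glucokinase, fell by 0.46 ± 0.08 (adjusted p = 0.00257).

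Of 11 hexose, lactate and pyruvate transporters, 5 were higher and 0 lower by edgeR (1 lower at an unadjusted p under 0.05, 0 by DESeq2 and 0 by limma-voom). Of the 11, 7 had a positive and 4 a negative log2 fold change, from -0.42 to 1.98. Slc2a2, the hexose carrier GLUT2 of enterocytes, rose 3.93-fold (log2 1.98 ± 0.47, SE, adjusted p = 0.0146), and Slc16a3, the lactate exporter MCT4, rose 2.58-fold from 3.75 ± 1.84 to 9.66 ± 1.56 CPM (SD, n = 5 each, adjusted p = 0.00907). Slc2a1, the glucose carrier GLUT1, was at -0.22 ± 0.12 (adjusted p = 0.178) and the lactate carrier Slc16a1 at -0.21 ± 0.09 (adjusted p = 0.117). Mpc1, a subunit of the mitochondrial pyruvate carrier, rose by 0.43 ± 0.10 (adjusted p = 0.00729), and the other carrier subunit, Mpc2, was at 0.19 ± 0.11 (adjusted p = 0.221).

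At the fate of pyruvate, 3 of 12 genes were higher and 0 lower by edgeR (0 lower at an unadjusted p under 0.05, 0 by DESeq2 and 0 by limma-voom). The inhibitory pyruvate dehydrogenase kinases Pdk4 and Pdk2 rose by 2.78 ± 0.60 (log2, SE, adjusted p = 0.0102) and 0.67 ± 0.16 (adjusted p = 0.00911), and Pcx, pyruvate carboxylase, rose by 0.59 ± 0.10 (adjusted p = 0.00206). The 5 subunit genes of the complex, Pdha1, Pdhb, Dlat, Dld and Pdhx, had log2 fold changes between -0.11 and 0.20, none of them called. Without WT replicates 3 and 4 Pdk4 was at 2.31 and was not called (adjusted p = 0.0589). With counts summed per identifier stem neither Pdk4 (2.54, adjusted p = 0.0619) nor Pdk2 (0.63, adjusted p = 0.0658) was called.

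Of 8 genes of the pentose phosphate branch, 1 was called, Rpe, ribulose-phosphate epimerase, at 0.31 ± 0.07 (adjusted p = 0.00848). Rpe was not called with an effective length offset (0.18, adjusted p = 0.175), on log2(TPM + 0.5) (0.07, limma adjusted p = 0.509) or without WT replicates 3 and 4 (0.27, adjusted p = 0.0541). Lower calls in this branch numbered 0 by edgeR but 4 with scaling by library size only and 3 on log2(TPM + 0.5). Of 13 tested hypoxia-inducible genes outside glycolysis, 10 had a positive and 3 a negative log2 fold change, from -1.44 to 1.57. Lower calls numbered 0 by edgeR (0 at an unadjusted p under 0.05), 0 by DESeq2 and 0 by limma-voom. By edgeR 5 were higher, against 15.6% higher and 12.7% lower over all tested genes. These were Egln3, an oxygen-sensing hydroxylase, at 1.57 ± 0.34 (adjusted p = 0.00837), Bnip3, a mitophagy receptor, at 1.27 ± 0.21 (adjusted p = 0.00164), Mxi1, a Myc antagonist, at 0.83 ± 0.12 (adjusted p = 0.000991), Bnip3l at 0.43 ± 0.09 (adjusted p = 0.00496) and Car9, a carbonic anhydrase, at 0.29 ± 0.06 (adjusted p = 0.007). On log2(TPM + 0.5) limma called neither Bnip3l (0.29, adjusted p = 0.0883) nor Car9 (0.16, adjusted p = 0.102), and Car9 was also not called with library size only (0.16, adjusted p = 0.0592).

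Summed levels were higher in every cKO than in every WT animal for the other genes of the pathway (1042 to 1428 CPM in WT, 1603 to 1917 CPM in cKO), the transporters (1128 to 2112 and 2517 to 3351 CPM), the pyruvate dehydrogenase group (1079 to 1189 and 1196 to 1328 CPM) and the hypoxia-inducible genes (391.8 to 447 and 491 to 638 CPM). The sum of the other pathway genes includes Gapdh and Pgk1, whose pseudogenes can share their reads, and no sum without them was taken. The villus marker sums given above were also higher in every cKO than in every WT animal, and their part in these 4 groups was not tested. The sums of the regulators (1395 to 1498 CPM in WT, 1393 to 1483 CPM in cKO) and of the pentose phosphate branch (1356 to 1586 and 1385 to 1560 CPM) overlapped between the genotypes. With 1 surrogate variable Ptbp1, Bpgm, Tigar, Fbp1, Fbp2, Myc, Mpc1, Pdk4, Pdk2, Rpe, Bnip3l and Car9 lost their calls, and on log2(TPM + 0.5) without a filter so did Epas1 (0.57, limma adjusted p = 0.0618) and Mpc1 (0.29, limma adjusted p = 0.0745). When a fold change above 1.5 was required, Gapdh kept its call and the other called genes named around the 10 enzymes lost theirs.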

How the data were processed

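RNA from jejunal crypts of 10 mice was turned into polyA libraries. Per the study's methods, the authors aligned reads with STAR and estimated gene expression with RSEM against GRCm38 with Ensembl release 95. The deposited tables give expected counts and TPM for 54838 genes in each library, together with effective lengths, and replicates were not pooled. The strand setting of the counting was not given in the sources used here.

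Expected counts were rounded and fitted with the edgeR (4.0.16) quasi-likelihood test, with robust dispersion, filterByExpr (minimum count 10) and TMM factors, which were 1.00 to 1.08 in WT and 0.934 to 0.986 in cKO libraries. CPM are TMM-scaled. The fit held genotype as its only term, and p-values were adjusted over 14719 genes with a threshold of 0.05. Library totals of 27050415 to 31053604 counts put 1 CPM at 27 to 31 counts. The deposited TPM were used for levels and for isoenzyme ratios, with p-values adjusted over 6 ratios of which 5 are reported, tested by a two-sided exact permutation test in which the smaller tail of 252 assignments was doubled. Each library is 1 animal, so p-values weigh the genotype difference against the spread between animals. The animals were treated as independent, although some of the same genotype share an identifier stem.

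Symbols came from a table that matched 54723 of 54838 identifiers. Copies were found by BLAST (2.17.0) of member transcripts against GENCODE M21 transcripts. Promoter windows came from RefSeq. The members, the gene lists, the rule that the text names members, copies and genes of these lists, and the alternatives were chosen with earlier results of these data known. 1 pathway gene is not reported here. Alternatives used DESeq2 (1.42.0), limma (3.58.1), sva (3.50.0), other scalings and filters, summed copies and left-out animals. The script for the tests was tested on simulated data.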

Additional observations from a re-analysis of the deposited data

Results flagged for a closer look

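Of 94 groups of 5 animals examined over the enzymes, Arid3a, the ratios and other named genes, 3 held an animal far from the rest, and chance flags about 1 group in 20. Hk1 measured 9.49 CPM in WT replicate 3, while the other 4 WT animals lay between 6.86 and 7.44 CPM. Without that animal the log2 fold change of Hk1 was -0.24 (edgeR adjusted p = 0.194). Tpi1 measured 685 CPM in cKO replicate 1, against 580 to 606 CPM in the other cKO animals. Bpgm measured 69.0 CPM in the same animal, against 49.3 to 53.9 CPM in the others. That animal was also the highest cKO animal in 9 of the 10 enzymes and had the largest library, at 31053604 counts. Without it the log2 fold change of Tpi1 was 0.20 (edgeR adjusted p = 0.17) and that of Bpgm was 0.27 (edgeR adjusted p = 0.09).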

How the results depend on the processing

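Of the 10 enzymes, 3 higher and 1 lower were called in the reported analysis. The higher count was 1 with 1 surrogate variable, 0 when a fold change above 1.5 was required, 5 with counts summed per identifier stem, and 3 to 6 on leaving out 1 animal, with 6 reached without WT replicate 2, when Pfkp, Tpi1 and Ldha were added. The lower count was 2 with scaling by library size only, 0 with 1 surrogate variable, 0 with a fold change above 1.5, 0 without WT replicates 3 and 4, and 1 whichever single animal was left out. With 1 surrogate variable Hk2 was at -0.22 (adjusted p = 0.158), Eno1 at 0.25 (adjusted p = 0.154), Gpi1 at 0.26 (adjusted p = 0.0778) and Aldoa at -0.014. Gpi1 also lost its call in limma on log2(TPM + 0.5) without a filter (adjusted p = 0.0552). Hif1a was at -0.022 with library size only, and Pfkm was at 0.0093 with 1 surrogate variable and at 0.0034 without WT replicates 3 and 4. Arid3a stayed called and lower in the 26 alternatives that gave a value, from -2.13 to -0.50, the smallest in size on log2(TPM + 1), a scale that compresses a gene below 1 TPM.

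Over all genes, 2298 were higher and 1869 lower. Higher genes numbered 1401 in limma on log2(TPM + 0.5), 1411 on log2(TPM + 1), 1131 on log2(TPM + 0.5) without a filter, 1021 with 1 surrogate variable, 76 with a fold change above 1.5 and 1472 without WT replicates 3 and 4. Lower genes numbered 4030, 275, 20, 670 and 1004 with library size only, 1 surrogate variable, a fold change above 1.5, without WT replicates 3 and 4 and with counts summed per stem. Leaving out 1 animal gave 1760 to 2572 higher and 1131 to 2112 lower, the lowest lower count without WT replicate 4.

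The log2 difference of the Hk2 to Hk1 ratio was -0.15 to 0.034 on leaving out 1 animal, positive without WT replicate 4. That of Pfkm to Pfkl was 0.0049 as a ratio of CPM and -0.065 to 0.037 on leaving out 1 animal. That of Pfkp to Pfkl was 0.38 to 0.59 and that of Pklr to Pkm 0.19 to 0.29 on leaving out 1 animal, and that of Ldhb to Ldha, not called, was -1.03 to -0.41, with -0.41 without cKO replicate 1. Without WT replicates 3 and 4, that of Pfkp to Pfkl was 0.22 and that of Pklr to Pkm was 0.15. This setting was chosen for the ratios after seeing the data. Neither passed the threshold, but with so few WT animals a pass needed nearly all tested ratios at the smallest possible p. The permutation test therefore cannot decide whether these differences hold without WT replicates 3 and 4. As a ratio of CPM over all animals, Pklr to Pkm was 0.23 and not called.

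Deviations of same-numbered animals correlated at -0.20 to 0.10 and 0 animals matched their own number best. These values show no pairing by replicate number, but they cannot exclude one, since paired animals need not deviate alike. With the replicate block 1860 genes were higher and 1188 lower, the calls of the 10 enzymes kept their side, and Pfkp to Pfkl (0.49) and Pklr to Pkm (0.24) had an adjusted p of 0.125, in a test of 5 pairs whose smallest p is 0.0625. The causes of these changes were not tested, except that fewer animals were used where animals were left out.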
